A study of Homo sapiens with 4 samples.

Results

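Genes of mitosis, the kinetochore and cytokinesis were examined in HCCLM3, a human hepatoma cell line, into which a lentivirus had brought a short hairpin RNA, in one group a control (shCtrl) and in the other one directed at KIAA1429 (shKIAA1429). The target, now called VIRMA, encodes a subunit of the complex that methylates adenosines of messenger RNA. RNA of 4 libraries was sequenced, 2 per group, the groups sharing the cell line and the lentiviral delivery and differing in the hairpin. A fixed list of 42 genes was taken by symbol, and all 42 were among the 13036 genes listed. Each gene's level was the sum over its transcripts of FPKM, a fragment count corrected for transcript length and for how many fragments the library mapped in all. A log2 fold change compares shKIAA1429 with shCtrl in log2(FPKM + 1), a scale that understates changes of low genes, and has a standard error (SE) from limma. Tested were 11657 genes that reached 1 FPKM in no fewer than 2 libraries, all 42 mitotic genes among them.

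Entry into mitosis is driven by CDK1 bound to cyclin B, which CDC25 phosphatases switch on, and by the Polo and Aurora kinases. Chromosomes attach to spindle microtubules through the kinetochore, a layered assembly built on centromeric nucleosomes, and a checkpoint delays anaphase until every kinetochore is attached. The anaphase-promoting complex with CDC20 then marks securin and cyclin B for destruction, separase cuts cohesin, and the central spindle and an actin ring divide the cell. Messenger RNAs of these genes peak in late G2 and mitosis, so in a bulk sample a lower share of dividing cells and less RNA per cell cannot be told apart. Their promoters are known for CCAAT boxes, bound by NF-Y, and for the cell cycle genes homology region, of the form TTTGAA or TTTAAA, bound by the DREAM and MuvB complexes.

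Promoter sequences are shown because such elements are what genes of this kind are known to share, and the list was not chosen by them. Windows from 250 bases before to 50 after a start site were taken from the RefSeq table on GRCh38.p14, another build than the GRCh37 positions used for the genes below. It held 45 windows for 35 of the 42 members, the members without a window being AURKA, BIRC5, BUB3, RACGAP1, TPX2, TTK and UBE2C. Both strands were searched for 3 motifs. CCAAT reads as ATTGG on the opposite strand, the motif TTTGAA likewise reads there as TTCAAA, and both of these are capitalised, while TTTAAA is its own reverse complement and is not. The windows printed are those of CDC20 at chr1:43358731-43359030, CCNB2 at chr15:59104896-59105195, PLK1 at chr16:23678639-23678938, CDK1 at chr10:60778228-60778527, KIF11 at chr10:92592880-92593179 and CDC25B at chr20:3796060-3796359, all on the plus strand and written 5′ to 3′.
CDC20: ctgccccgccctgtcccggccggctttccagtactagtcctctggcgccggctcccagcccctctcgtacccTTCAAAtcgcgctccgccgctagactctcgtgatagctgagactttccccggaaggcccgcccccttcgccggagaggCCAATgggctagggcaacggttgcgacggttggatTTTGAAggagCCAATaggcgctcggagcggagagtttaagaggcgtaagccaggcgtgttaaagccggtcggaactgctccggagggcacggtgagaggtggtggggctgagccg
CCNB2: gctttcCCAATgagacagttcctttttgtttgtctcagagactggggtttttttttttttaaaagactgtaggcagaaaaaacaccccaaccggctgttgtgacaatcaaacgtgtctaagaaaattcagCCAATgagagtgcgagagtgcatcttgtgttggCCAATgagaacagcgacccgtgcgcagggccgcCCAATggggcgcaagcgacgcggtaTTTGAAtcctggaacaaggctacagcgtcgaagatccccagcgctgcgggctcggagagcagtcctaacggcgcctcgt
PLK1: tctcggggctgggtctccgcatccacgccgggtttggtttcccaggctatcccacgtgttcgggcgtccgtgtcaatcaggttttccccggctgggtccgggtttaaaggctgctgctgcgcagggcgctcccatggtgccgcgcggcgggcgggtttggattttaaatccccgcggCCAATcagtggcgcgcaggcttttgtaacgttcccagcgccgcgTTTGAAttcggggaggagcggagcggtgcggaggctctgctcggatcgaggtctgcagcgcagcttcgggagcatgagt
CDK1: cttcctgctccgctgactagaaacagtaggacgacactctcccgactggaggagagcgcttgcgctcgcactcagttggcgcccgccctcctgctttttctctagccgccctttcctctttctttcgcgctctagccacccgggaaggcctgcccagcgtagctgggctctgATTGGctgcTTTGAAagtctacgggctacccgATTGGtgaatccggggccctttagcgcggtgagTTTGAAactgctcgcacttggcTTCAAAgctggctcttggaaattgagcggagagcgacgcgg
KIF11: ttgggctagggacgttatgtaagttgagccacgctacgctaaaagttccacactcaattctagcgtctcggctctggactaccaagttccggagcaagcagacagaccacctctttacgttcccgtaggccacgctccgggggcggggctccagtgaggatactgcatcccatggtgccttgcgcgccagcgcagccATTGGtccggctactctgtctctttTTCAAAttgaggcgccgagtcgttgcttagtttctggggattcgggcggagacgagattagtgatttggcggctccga
CDC25B: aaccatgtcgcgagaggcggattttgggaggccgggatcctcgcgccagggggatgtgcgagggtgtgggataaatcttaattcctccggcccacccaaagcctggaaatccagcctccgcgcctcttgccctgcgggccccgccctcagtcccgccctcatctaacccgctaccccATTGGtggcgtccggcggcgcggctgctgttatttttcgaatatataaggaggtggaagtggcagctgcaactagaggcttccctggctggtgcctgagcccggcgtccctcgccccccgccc
CCAAT stood in 33 of the 45 member windows (73.3%), against 34.6% of all 35116 windows of the same length. TTTGAA stood in 27 (60%), against 15.2% of all windows, and TTTAAA in 14 (31.1%), against 12.2%. Both CCAAT and TTTGAA were found in 22 (48.9%), against 5.9%. A member with several start sites has several, partly overlapping windows, and these matches are a description of letters, not of sites in use. In the printed KIF11 window CCAAT began 53 bases and TTTGAA 28 bases upstream of the start, and in that of PLK1 they began 73 and 29 bases upstream. CCNB2 held 4 CCAAT matches and CDK1 2 CCAAT and 3 TTTGAA matches, whereas the CDC25B window held 1 CCAAT and no TTTGAA. None of the 4 CDC25B windows held the latter motif, while that at chr20:3799798-3800097 held 1 match to the form that is its own reverse complement. The motif missing from CDC25B was found in 24 of the 35 members with a window. CCNB1, CCNA2 and KIF20A are among the other members that lacked it, so its absence does not set CDC25B apart.

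The targeted gene was checked in every library. VIRMA measured 9.37 and 14.1 FPKM in shCtrl replicates 1 and 2, and 6.90 and 8.52 FPKM in shKIAA1429 replicates 1 and 2. The groups did not overlap, shKIAA1429 being the lower, with a log2 fold change of -0.53 (SE 0.24, adjusted p = 0.917 by limma), and of -0.26 without shCtrl replicate 2. An exact permutation test of the 4 values gave p = 0.333, the smallest that 2 against 2 allow. Of the 14 hepatocyte and hepatoma markers, KRT8 and KRT18 lay between 971 and 1176 FPKM and SERPINA1 between 3.34 and 5.63 FPKM. The other 11, ALB and AFP among them, were looked up by symbol and were not among the genes listed, so they have no values here. Of the markers of other cell types, 4 of 5 fibroblast genes, 1 of 5 immune genes (CD68 at 44.1 to 52.3 FPKM) and 0 of 4 endothelial genes had values. Among the fibroblast genes, COL3A1 lay at 55.8 to 63.6 FPKM and DCN at 0.120 to 1.06 FPKM. LUM was lower in shKIAA1429, at 7.04 to 7.92 FPKM in shCtrl and 2.73 to 2.88 FPKM in shKIAA1429. COL1A1 was not, at 3.54 and 4.95 FPKM in shCtrl and 4.90 and 6.76 FPKM in shKIAA1429. The part of these markers in the values that follow was not tested. Read depth is unknown, and the summed FPKM of a library was 370253.5 to 390224.4.

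For most of the 42 mitotic genes, the libraries differed more within a group than between the groups. In shCtrl, 42 of 42 were higher in replicate 2 than in replicate 1, against 50.1% of all genes tested. In shKIAA1429, 40 of 42 were higher in replicate 2, against 53.2% of all genes, and the same 40 were higher in replicate 2 in both groups, against 34.9% of all genes. The difference had a median of 0.56 on the log2(FPKM + 1) scale in shCtrl, ranging from 0.15 to 1.05, and of 0.60 in shKIAA1429, ranging from -0.09 to 1.83. The medians over all genes were 0.00054 and 0.023. As a ratio of FPKM, replicate 2 stood at a median of 1.49 times replicate 1 in shCtrl and 1.54 times in shKIAA1429, the latter over the 41 members not listed at 0. Together the members summed to 1017.9 and 1519.4 FPKM in shCtrl, and to 992.6 and 1472.8 FPKM in shKIAA1429, which was 0.275%, 0.406%, 0.254% and 0.386% of each library. The 2 members outside the pattern were AURKA and CDC25B, both of which fell short of it in shKIAA1429 only. The labels do not say what a replicate number stands for, so it is a name here and no batch was assigned. The 2 within-group comparisons use separate libraries and no sample in common.

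**Figure D1:**
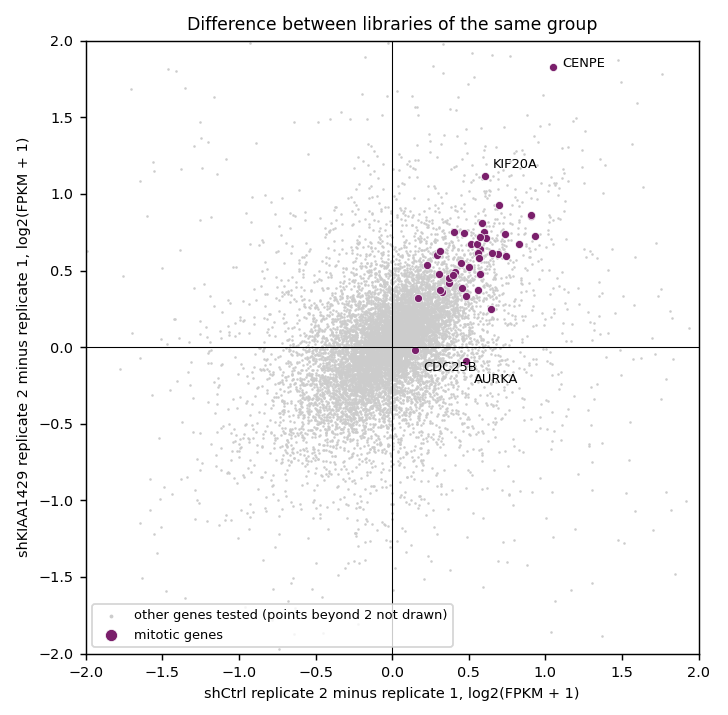
Each point is a gene tested, at the difference of log2(FPKM + 1) between replicates 2 and 1 of shCtrl (horizontal axis) and of shKIAA1429 (vertical axis), with the 42 mitotic genes in purple and all other genes in grey. To the upper right of both zero lines lie 40 of the 42, CENPE farthest out, and AURKA and CDC25B lie just below the horizontal line.

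Against that spread, the hairpin changed none of them past both thresholds, a limma adjusted p under 0.05 and a log2 fold change beyond 1 in size. This was also so for every gene tested (0%). None of the 42 had an unadjusted p under 0.05, against 5.63% of all genes. The smallest was 0.142, for CDC25B, and the smallest adjusted p among the members was 0.949. The members' log2 fold changes had a median of -0.04, beside -0.01 over all genes, and ran from -0.41 for CENPE to 0.24 for INCENP. Of the 42, 14 lay above 0 and 28 below, where 5612 and 6045 of all 11657 genes tested did. In 38 of the 42 the change was smaller than its own SE, and the share of all genes for which this held is not given here. The 2 shKIAA1429 values were the lower pair in 2 members, AURKA and CDC25B, where 16.7% of all genes did so, and the higher pair in 0 members, where 16.9% of all genes did so.

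The precision of these comparisons was low. The median SE of a member was 0.29, beside 0.18 over all genes, and 41 of the 42 had an SE above that of the median gene. The 95% interval of the change stayed between -1 and 1 for 32 members and reached past that range for 10, the widest being that of CENPE (-2.21 to 1.39). A change of 1 on the log2(FPKM + 1) scale was thus within the interval of some members and outside that of most. For a low gene a 2-fold change of FPKM is less than 1 on that scale, so it may lie within an interval that stays between -1 and 1. The median turned with the libraries used, being -0.30 without shCtrl replicate 1, 0.23 without shCtrl replicate 2, 0.27 without shKIAA1429 replicate 1 and -0.33 without shKIAA1429 replicate 2. Of the 10 members whose fold changes are given, 7 changed sign with the library left out. AURKA, AURKB and CDC25B stayed negative, but came as close to 0 as -0.10, -0.01 and -0.15.

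**Figure D2:**
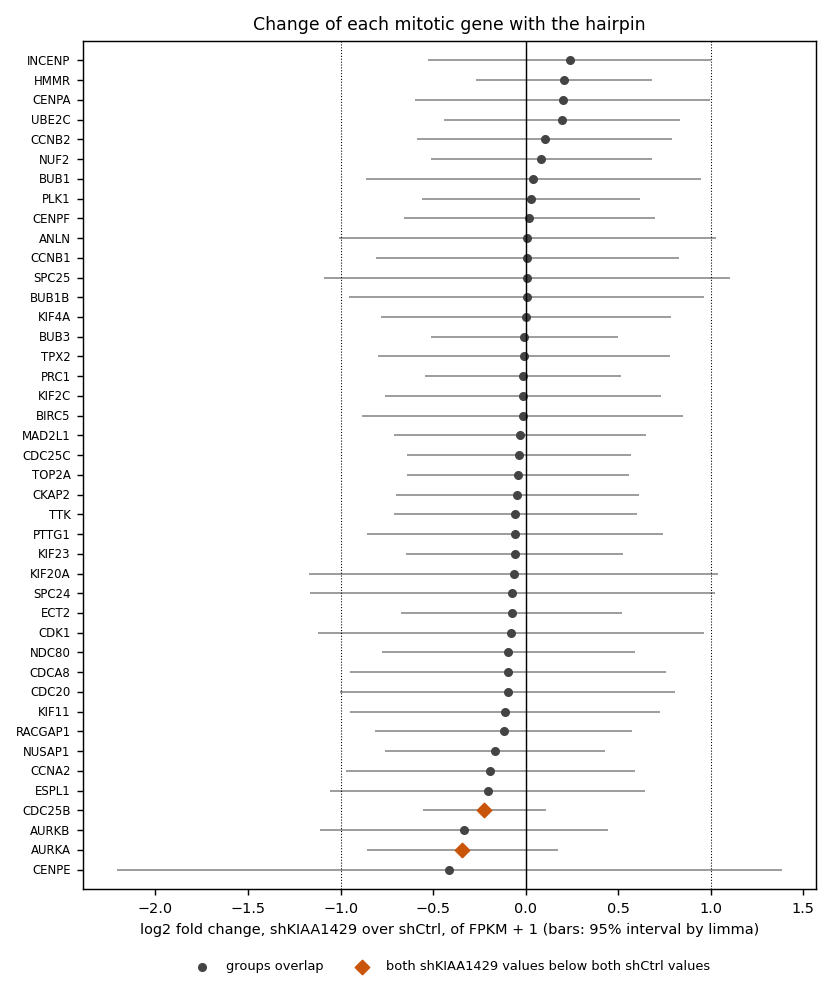
Log2 fold change of each of the 42 mitotic genes, shKIAA1429 over shCtrl on the log2(FPKM + 1) scale, as points with 95% intervals from limma, ordered by size. Dotted lines mark -1 and 1, all intervals include 0, and diamonds mark AURKA and CDC25B, the 2 genes whose groups do not overlap.

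The kinases, cyclins and phosphatases of mitotic entry were 8 members. CCNB1, which encodes cyclin B1 and lies on GRCh37 chromosome 5 (68462837 to 68474072, plus strand), measured 60.7 and 98.7 FPKM in shCtrl replicates 1 and 2, and 62.9 and 96.3 FPKM in shKIAA1429 replicates 1 and 2. The pair of libraries numbered 1 and the pair numbered 2 were each close together and the groups overlapped, with a log2 fold change of 0.01 (SE 0.32, adjusted p = 0.999 by limma). CDK1, the kinase that cyclin B activates, followed the same order with 8.10 and 16.4 FPKM in shCtrl and 8.26 and 14.3 FPKM in shKIAA1429. CCNB2, CCNA2 and PLK1, the Polo kinase, were also higher in replicate 2 of both groups, CCNA2 at 13.6 and 19.8 FPKM in shCtrl and 11.1 and 18.2 FPKM in shKIAA1429. CDC25C, one of the phosphatases that activate CDK1, measured 6.78 and 8.09 FPKM in shCtrl and 5.82 and 8.90 FPKM in shKIAA1429.

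AURKA and CDC25B departed from the other 40. AURKA, the kinase of centrosome maturation and spindle assembly (chromosome 20, 54944446 to 54967393, minus strand), measured 37.7 and 53.0 FPKM in shCtrl replicates 1 and 2 and 36.3 and 33.9 FPKM in shKIAA1429. All 3 other libraries lay within 4 FPKM of each other and shCtrl replicate 2 stood above them. Its log2 fold change was -0.34 (SE 0.20, 95% interval -0.86 to 0.17, adjusted p = 0.952 by limma), and -0.10 without shCtrl replicate 2. CDC25B, a phosphatase that starts CDK1 activation at the centrosome (chromosome 20, 3776386 to 3786765, plus strand), measured 52.8 and 58.7 FPKM in shCtrl and 47.8 and 47.2 FPKM in shKIAA1429. Its replicates differed the least of all members, by 0.15 and -0.02 on the log2 scale, and its log2 fold change was -0.22 (SE 0.13, adjusted p = 0.949 by limma). Non-overlap of this kind was found in 16.7% of all genes.

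The chromosomal passenger complex holds the kinase AURKB, its scaffold INCENP, and the targeting subunits BIRC5 (survivin) and CDCA8 (borealin), which correct wrong attachments at the centromere. AURKB was the highest of the 4 in every library, at 43.9 and 65.8 FPKM in shCtrl and 33.8 and 53.3 FPKM in shKIAA1429. Its log2 fold change was -0.33 (SE 0.30, adjusted p = 0.979 by limma), and its 2 groups overlapped. The change was -0.01 without shKIAA1429 replicate 1, -0.05 without shCtrl replicate 2 and -0.65 without shKIAA1429 replicate 2. INCENP measured 20.7 and 31.0 FPKM in shCtrl and 24.1 and 37.4 FPKM in shKIAA1429, with a log2 fold change of 0.24 (SE 0.29), the highest among the 42. BIRC5 was the lowest of the complex in every library, from 13.9 FPKM in shKIAA1429 replicate 1 to 24.1 FPKM in shKIAA1429 replicate 2. CDCA8 measured 24.2 and 41.1 FPKM in shCtrl and 23.8 and 36.4 FPKM in shKIAA1429, so that all 4 subunits were higher in replicate 2 of both groups.

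The checkpoint genes spanned a wide range of levels. BUB3, which binds phosphorylated kinetochores and brings BUB1 and BUB1B with it, averaged 50.4 FPKM over the 4 libraries (44.7 and 56.3 in shCtrl, 43.9 and 56.6 in shKIAA1429). MAD2L1, the protein that holds CDC20 in check, averaged 2.20 FPKM, from 1.53 in shKIAA1429 replicate 1 to 2.85 in shKIAA1429 replicate 2. TTK, the kinase that starts the checkpoint signal, lay between 2.27 and 3.64 FPKM. BUB1 measured 5.37 and 8.54 FPKM in shCtrl and 5.06 and 9.62 FPKM in shKIAA1429, and BUB1B 4.32 and 8.44 FPKM in shCtrl and 4.63 and 7.97 FPKM in shKIAA1429. All 5 were higher in replicate 2 of both groups, and their log2 fold changes lay between -0.06 and 0.04.

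CDC20, the activator that the checkpoint restrains, was the most abundant member. It lies on chromosome 1 (43824626 to 43828874, plus strand) and measured 119 and 199 FPKM in shCtrl replicates 1 and 2, and 111 and 187 FPKM in shKIAA1429 replicates 1 and 2. Replicate 2 stood 1.67 times above replicate 1 in shCtrl and 1.68 times in shKIAA1429, while the log2 fold change between groups was -0.10 (SE 0.35, adjusted p = 0.999 by limma). UBE2C, the ubiquitin-conjugating enzyme of the anaphase-promoting complex, measured 74.9 and 117 FPKM in shCtrl and 98.6 and 117 FPKM in shKIAA1429, giving a log2 fold change of 0.20 (SE 0.25). PTTG1 encodes securin, the inhibitor of separase, and measured 56.8 and 89.9 FPKM in shCtrl and 55.4 and 85.2 FPKM in shKIAA1429, giving a log2 fold change of -0.06 (SE 0.31). ESPL1, separase itself, followed with 15.9 and 24.9 FPKM in shCtrl and 13.2 and 22.2 FPKM in shKIAA1429. Inhibitor and protease thus kept the same order of libraries, securin being the higher per length in each.

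At the centromere, CENPA, the histone H3 variant that marks it, measured 18.6 and 27.8 FPKM in shCtrl and 20.6 and 33.5 FPKM in shKIAA1429. In the microtubule-binding NDC80 complex, SPC24 was the highest subunit in every library (13.0 and 25.4 FPKM in shCtrl, 12.6 and 23.7 FPKM in shKIAA1429). SPC25 measured 6.08 and 12.2 FPKM in shCtrl and 6.22 and 12.1 FPKM in shKIAA1429, a ratio of 2.01 and 1.95 between replicates 2 and 1. NDC80 and NUF2, the other arm of the complex, lay between 5.17 and 9.22 FPKM with ratios of 1.27 and 1.28 in shCtrl, and of 1.64 and 1.47 in shKIAA1429. CENPE, a kinetochore motor that moves chromosomes to the spindle equator, was the lowest member, at 0.742 and 2.61 FPKM in shCtrl, listed at 0 in shKIAA1429 replicate 1 and 2.55 FPKM in shKIAA1429 replicate 2. Its log2 fold change of -0.41 (SE 0.69) carried the largest SE of all 42, and was 0.50 without shKIAA1429 replicate 1 and -1.55 with a pseudocount of 0.1 in place of 1. CENPF, a large coat protein of the outer kinetochore, measured 17.1 and 23.8 FPKM in shCtrl and 16.8 and 24.9 FPKM in shKIAA1429.

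Among spindle proteins, TPX2, which activates AURKA on microtubules, was the highest at 58.4 and 81.1 FPKM in shCtrl and 52.5 and 88.8 FPKM in shKIAA1429. Its log2 fold change was -0.01 (SE 0.30), and its sign turned with upper quartile scaling. KIF11, the motor that pushes spindle poles apart, measured 9.99 and 15.4 FPKM in shCtrl and 8.67 and 14.9 FPKM in shKIAA1429. KIF2C, a microtubule depolymerase of the centromere, measured 24.5 and 36.7 FPKM in shCtrl and 24.0 and 36.5 FPKM in shKIAA1429, values that differed less between hairpins than between replicates. KIF4A, NUSAP1 and CKAP2 ranged from 10.2 to 24.0 FPKM. HMMR, a centrosomal and microtubule-binding protein, showed one of the smallest differences between replicates, at 4.96 and 5.70 FPKM in shCtrl and 5.53 and 7.16 FPKM in shKIAA1429.

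In cytokinesis, KIF20A, a motor of the central spindle, measured 25.9 and 40.0 FPKM in shCtrl and 20.5 and 45.8 FPKM in shKIAA1429. The lowest and the highest of its 4 values were both in shKIAA1429. KIF23 and RACGAP1 form the centralspindlin complex, and RACGAP1 was the more abundant per length (33.2 and 49.9 FPKM in shCtrl, 31.5 and 44.2 FPKM in shKIAA1429) beside KIF23 at 7.24 to 10.3 FPKM. PRC1, which bundles the central spindle, and ECT2, the exchange factor that centralspindlin recruits, ranged from 15.2 to 20.1 FPKM and from 10.1 to 14.6 FPKM. ANLN, the anillin scaffold of the contractile ring, measured 19.7 and 32.5 FPKM in shCtrl and 18.2 and 35.6 FPKM in shKIAA1429. TOP2A, the topoisomerase that untangles sister chromatids, measured 37.8 and 50.01 FPKM in shCtrl and 35.7 and 49.9 FPKM in shKIAA1429. All 7 of these genes were higher in replicate 2 of both groups.

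**Figure D3:**
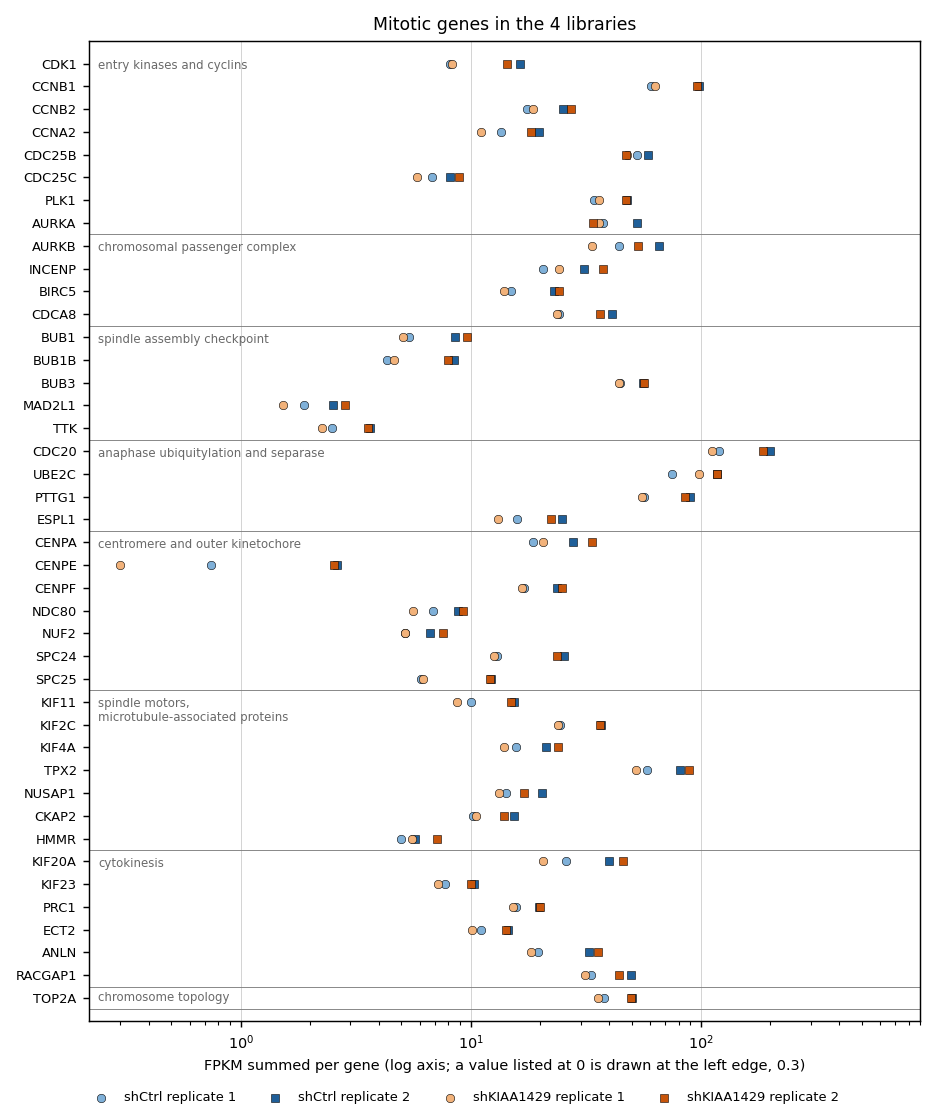
FPKM summed per gene (log axis) of the 42 mitotic genes, by role, with shCtrl in blue, shKIAA1429 in orange, replicate 1 as circles and replicate 2 as squares. In 40 genes both squares lie to the right of the circle of their own colour, the exceptions being AURKA and CDC25B, and CENPE in shKIAA1429 replicate 1 is listed at 0.

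In level, 31 members averaged over 10 FPKM, 7 over 50 FPKM and 3 (CENPE, MAD2L1 and TTK) under 5 FPKM. Exons of 16 members share bases with another annotated gene, and 10 members have pseudogenes named after them, UBE2C with 5 and AURKA with 2, so that reads could be split between them by a counting rule that is not given in the sources used here.

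Other genes of the cell division pathways were read from lists of the same kind. Among 33 tested genes of the spindle and cytokinesis outside the 42, 31 were higher in replicate 2 of both groups, and among 23 genes of the inner kinetochore and the KMN network 19 were, against 34.9% of all genes. The 46 DNA replication genes, which act in S phase, followed with 38, and their medians between replicates were 0.50 in shCtrl and 0.79 in shKIAA1429. Of 17 subunits and regulators of the anaphase-promoting complex 9 were higher in both, of 19 cohesin and condensin genes 11, of 6 other checkpoint genes 5, and of 17 regulators of G2/M transcription 10. PCNA, the sliding clamp of replication, measured 34.9 and 81.3 FPKM in shCtrl and 25.7 and 74.4 FPKM in shKIAA1429. MKI67, the proliferation marker Ki-67, measured 14.9 and 39.4 FPKM in shCtrl and 28.2 and 38.1 FPKM in shKIAA1429. FOXM1, a transcription factor of mitotic genes, measured 32.6 and 44.4 FPKM in shCtrl and 29.3 and 38.2 FPKM in shKIAA1429. MYBL2, which works with the MuvB complex, measured 83.0 and 124 FPKM in shCtrl and 70.9 and 119 FPKM in shKIAA1429. In all 4 of these genes replicate 2 was the higher library of both groups. CDKN1A, the p21 inhibitor of cyclin-dependent kinases, did not share the split, at 156 and 167 FPKM in shCtrl and 159 and 153 FPKM in shKIAA1429. These 5 genes were picked after their values were seen.

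**Figure D4:**
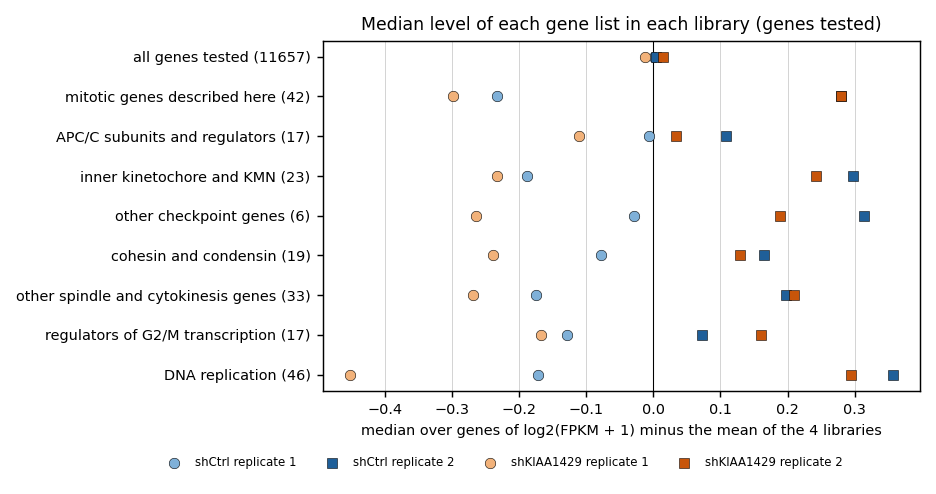
Median over the tested genes of each list (number in brackets) of log2(FPKM + 1) minus the gene's mean over the 4 libraries, one symbol per library. For the 42 mitotic genes replicate 1 lies at -0.23 in shCtrl and -0.30 in shKIAA1429, and replicate 2 at 0.28 in both, while all genes together stay near 0.

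Between the hairpins, none of these lists held a gene past the thresholds (0 of 161 genes tested). Of those genes 5 had an unadjusted p under 0.05 by limma, where 5.63% of all genes did. ANAPC11, the RING subunit of the anaphase-promoting complex, measured 32.6 and 32.2 FPKM in shCtrl and 21.3 and 21.8 FPKM in shKIAA1429, giving a log2 fold change of -0.57 (SE 0.13, adjusted p = 0.588 by limma). CENPO, of the inner kinetochore, measured 13.4 and 20.6 FPKM in shCtrl and 9.02 and 8.04 FPKM in shKIAA1429 (log2 fold change -0.89, SE 0.24). PMF1, of the MIS12 complex, measured 8.24 and 9.48 FPKM in shCtrl and 12.6 and 13.9 FPKM in shKIAA1429 (log2 fold change 0.53, SE 0.15). E2F4, a DREAM complex subunit, measured 10.1 and 7.73 FPKM in shCtrl and 28.1 and 13.6 FPKM in shKIAA1429 (log2 fold change 1.07, SE 0.36), a change of 0.57 without shKIAA1429 replicate 1 and 1.56 without shKIAA1429 replicate 2. MCM7, of the replicative helicase, measured 74.1 and 62.4 FPKM in shCtrl and 39.2 and 46.6 FPKM in shKIAA1429 (log2 fold change -0.66, SE 0.16). In each of these genes, which were named for their unadjusted p, the groups did not overlap. Of all genes tested, 16.7% had shKIAA1429 as the lower pair and 16.9% as the higher pair. The adjusted p by limma of these 5 genes was 0.588 to 0.871. The other genes at the ends of their lists were ANAPC15 (0.23) and ANAPC13 (-0.68), MIS12 (0.54), KNTC1 (0.02) and ZW10 (-0.36), SGO1 (0.18) and NCAPD3 (-0.52), CIT (0.47) and HAUS7 (-0.82), E2F1 (-0.51) and LIG1 (0.44), each given as its log2 fold change. Single libraries moved several of these values, HAUS7 to -0.17 and NCAPD3 to -0.19 without shCtrl replicate 2, and ANAPC13 to -0.32 without shKIAA1429 replicate 1.

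A member's sum can hide transcripts that move apart, so each of the 166 listed transcripts of the members was read as well, 146 of them protein coding and 20 processed transcripts. Of the 127 tested, 14 had an unadjusted p under 0.05 by limma (11.02%), against 6.28% of all 24996 transcripts tested, 6 of them higher and 8 lower in shKIAA1429. None passed both thresholds, as for all transcripts (0%), and the smallest adjusted p by limma was 0.149. These 14 belonged to 11 members. The same transcript was the most abundant in all 4 libraries in 30 members, and in the other 12 it changed between libraries.

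The transcripts named next were chosen after their values were seen. In CDC25C, ENST00000514555.5_2 (12 exons) measured 3.11 and 3.45 FPKM in shCtrl and was listed at 0 in both shKIAA1429 libraries, while ENST00000323760.10_2 (14 exons) measured 1.47 and 0.931 FPKM in shCtrl and 2.82 and 3.04 FPKM in shKIAA1429. In CKAP2, a spindle-associated protein, ENST00000258607.9_1 measured 3.41 and 3.54 FPKM in shCtrl and 0.334 and 0.306 FPKM in shKIAA1429. Its neighbour ENST00000378037.9_1, of the same 9 exons in number and a coding length of 2049 against 2046 bases, measured 2.38 and 2.85 FPKM in shCtrl and 5.397 and 8.27 FPKM in shKIAA1429. In KIF2C, ENST00000372217.5_2 measured 3.66 and 6.52 FPKM in shCtrl and 14.9 and 11.6 FPKM in shKIAA1429, although the gene's sum was alike in both groups. The values of these transcripts did not overlap between the groups. Because they were picked with their values known, this is no result about the members. For sums per gene, which are another measure, shKIAA1429 was the lower pair in 16.7% of all genes tested and the higher pair in 16.9%. The share over all transcripts is not given here.

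Transcripts of the members named by their sums moved less clearly. In AURKA, ENST00000395913.7_1 measured 12.9 and 13.4 FPKM in shCtrl and 7.0 and 9.25 FPKM in shKIAA1429 and ENST00000395915.7_1 8.86 and 9.40 FPKM in shCtrl and 4.74 and 7.37 FPKM in shKIAA1429, so both kept the groups apart. The transcript ENST00000312783.10_1 did not, at 5.80 and 10.6 FPKM in shCtrl and 11.1 and 1.448 FPKM in shKIAA1429. All 3 share a coding length of 1209 bases. In CDC25B, ENST00000340833.4_2 carried most of the sum, at 41.2 and 44.1 FPKM in shCtrl and 35.3 and 33.2 FPKM in shKIAA1429. CCNB1 was mostly ENST00000256442.9_1, at 45.1 and 75.6 FPKM in shCtrl and 43.97 and 70.7 FPKM in shKIAA1429, and that of CDC20 was ENST00000310955.10_1, at 90.0 and 157 FPKM in shCtrl and 85.9 and 144 FPKM in shKIAA1429. In AURKB, ENST00000585124.5_1 held 29.6 and 46.4 FPKM in shCtrl and 17.2 and 35.3 FPKM in shKIAA1429. The leading transcripts of CCNB1, CDC20 and AURKB were higher in replicate 2 than in replicate 1 of both groups, as their sums were. The transcript of CCNB1 that differed, ENST00000506572.5_1, measured 3.30 and 3.39 FPKM in shCtrl and 6.70 and 8.49 FPKM in shKIAA1429.

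UBE2C was mostly ENST00000356455.8_1, at 63.0 and 93.2 FPKM in shCtrl and 58.8 and 101 FPKM in shKIAA1429. The gene's higher sum in shKIAA1429 replicate 1 than in shCtrl replicate 1 came partly with ENST00000243893.10_1. That transcript measured 14.3 FPKM in shKIAA1429 replicate 1 and 0.0931 to 0.758 FPKM in the other libraries. ENST00000372568.4_1 was also higher there, at 6.47 and 10.1 FPKM in shCtrl and 11.6 and 9.24 FPKM in shKIAA1429. TPX2 was mostly ENST00000300403.10_1, at 54.7 and 76.4 FPKM in shCtrl and 49.3 and 83.6 FPKM in shKIAA1429. INCENP had its highest level in ENST00000394818.7_1, at 9.46 and 15.5 FPKM in shCtrl and 12.5 and 19.1 FPKM in shKIAA1429, and its processed transcript ENST00000531099.1_1 held 5.45 to 7.91 FPKM. CENPE was listed as 1 transcript of 47 exons.

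PTTG1 behaved otherwise. Its ENST00000520452.5_1 measured 4.15 and 62.0 FPKM in shCtrl and 37.5 and 7.91 FPKM in shKIAA1429, and ENST00000352433.9_1 measured 38.2 and 21.6 FPKM in shCtrl and 13.6 and 53.0 FPKM in shKIAA1429. Where one was high the other was low, in a pattern that followed neither hairpin nor replicate number, and both have a coding length of 606 bases. The gene's sum was free of this exchange, with 56.8 and 89.9 FPKM in shCtrl and 55.4 and 85.2 FPKM in shKIAA1429. How reads were divided among transcripts is not given in the sources used here, and its part in these transcript values was not tested.

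**Figure D5:**
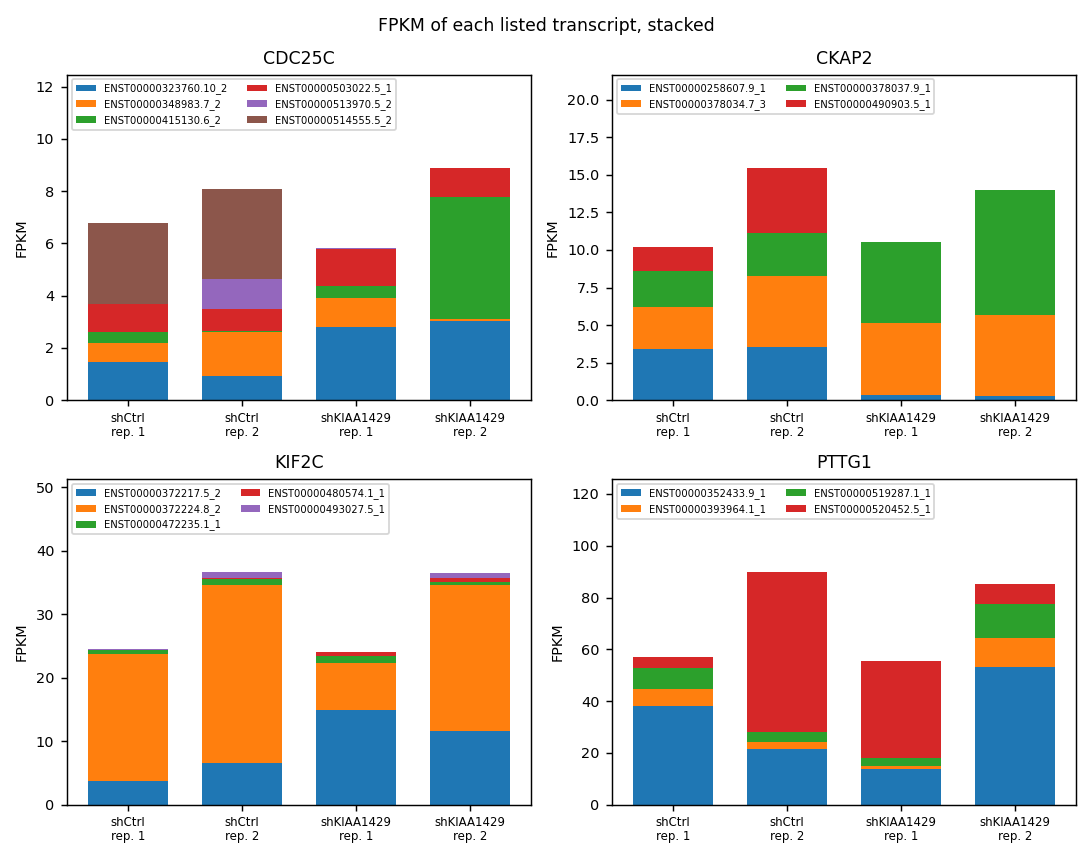
FPKM of each listed transcript of CDC25C, CKAP2, KIF2C and PTTG1, stacked so that a bar's height is the gene's sum, in each of the 4 libraries. In CDC25C, CKAP2 and KIF2C at least 1 transcript separates the groups, whereas in PTTG1 the red and blue transcripts change places within each group.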

How the data were processed

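Gene expression in HCCLM3 cells, a human hepatoma line, was measured by RNA sequencing in 2 shCtrl and 2 shKIAA1429 libraries, grouped and numbered by their titles. The deposited files hold FPKM values per annotated transcript, made by the authors. The submitters' processing notes name Bowtie2 2.1.0 and the hg19 build, the methods of the study name TopHat, HTSeq and DESeq, and the tool that made the FPKM values is not given in the sources used here. Listed transcripts all reached 0.504 FPKM in at least 1 library. FPKM depends on the total mapped, so abundant RNAs shift all other values, and the values give no read counts, so depth is unknown and no counting interval could be given.

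FPKM was summed per gene, positions being on GRCh37, and 163 of the 166 member transcripts matched the GENCODE annotation lifted to that build. Genes reaching 1 FPKM in no fewer than 2 libraries were kept, and log2(FPKM + 1) was compared with limma 3.58.1 in R 4.3.3 (eBayes with trend, group only, two-sided), with Benjamini-Hochberg adjustment over all genes, or all transcripts, tested. Thresholds were those in the methods of the study. The fit was tested on simulated data, in which genes were drawn independently and libraries of the same number shared no shift. That check does not bear on the shift with replicate number seen in the members. The members and lists were chosen with earlier results of these data known. Values were given for all members by role, with fold changes for those whose groups did not overlap, the 5 with the highest mean and the 5 with the largest change. Of these members, transcripts holding at least 10% of the sum in a library were read. In each other list the largest rise and fall and any gene with an unadjusted p under 0.05 were named. Nothing says that the replicates came from separate cultures, so p-values measure only the spread between these libraries, which may be technical. Alternatives tried were upper quartile scaling, other filters, a pseudocount of 0.1, a robust variance, a block for the replicate number, each library left out, each threshold alone and each transcript by itself. Plots were made in Python 3.11.15 with matplotlib 3.10.9.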

Additional observations from a re-analysis of the deposited data

How the results depend on the processing

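No member passed both thresholds under any alternative run, and VIRMA kept a negative log2 fold change (-0.80 to -0.26 with 1 library left out). The members' median stayed between -0.04 and -0.02 under the other scaling, filters, pseudocount, variance and block, but ran from -0.33 to 0.27 when a library was left out. Over all genes, 0 to 1 passed both thresholds with a library left out, and 125 passed the fold change alone, none of them a member. Members whose groups did not overlap numbered 3 with upper quartile scaling and 13 to 31 with a library left out. With a library left out, 1 group has a single library that is assumed to vary like the other group. Non-overlap then only needs that single value to lie outside the other pair. The 13 to 31 therefore cannot be compared with the 2 of the main setting. The share of all genes without overlap is not given here for these settings. Both signs of TPX2 were met, with 0.0071 under upper quartile scaling, and CCNB1 was -0.065 by its most abundant transcript. Signs also turned with the library left out, the lowest and highest log2 fold changes being -0.34 and 0.35 for CCNB1, -0.070 and 0.54 for INCENP, -0.13 and 0.52 for UBE2C, -0.47 and 0.27 for CDC20, -0.38 and 0.27 for PTTG1, -1.33 and 0.50 for CENPE, and -0.38 and 0.36 for TPX2. Among the other lists they were -0.075 and 0.53 for ANAPC15, -0.34 and 0.38 for KNTC1, -0.19 and 1.27 for MIS12, -0.17 and 0.53 for SGO1, -1.15 and 0.13 for E2F1, -0.55 and 1.43 for LIG1, -0.26 and 1.09 for MKI67, -0.40 and 0.037 for FOXM1, -0.51 and 0.22 for MYBL2, -1.03 and 0.47 for PCNA and -0.094 and 0.0029 for CDKN1A. Without a change of sign, the lowest and highest were -0.65 and -0.01 for AURKB, -0.58 and -0.10 for AURKA, 0.57 and 1.56 for E2F4, -1.46 and -0.17 for HAUS7, -0.84 and -0.19 for NCAPD3, -1.04 and -0.32 for ANAPC13, -0.55 and -0.16 for ZW10, 0.25 and 0.69 for CIT, and -0.30 and -0.15 for CDC25B. With a pseudocount of 0.1, CENPE was -1.55. The cause was not tested.

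Higher levels in replicate 2 of both groups were kept by 40 of 42 members with upper quartile scaling and by 39 of the 41 that reached 1 FPKM in every library, both chosen after seeing the data. The share of all genes was 34.9% in the main setting and is not given here for these 2 settings. Same-numbered libraries deviated from their group means with a correlation of 0.324 across genes (2 pairs), but no label ties them together, so the pairing was not used. With the replicate block, the members' median log2 fold change was -0.04, their median SE 0.10, and the smallest adjusted p by limma 0.420. 1 member, AURKB, then had an unadjusted p under 0.05 by limma, and no member or other gene passed both thresholds. The share of all genes with such a p in the block fit is not given here, so this does not set AURKB apart. Changes smaller than 1 log2 unit could not pass both thresholds in any gene, because the fold change threshold lies there. With 2 libraries per group and unknown depth, larger changes could be missed as well, and no detection limit was computed. Over all genes the log2 fold changes of the main fit ran from -2.21 to 2.98, and the smallest adjusted p by limma was 0.238.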
